A study of Mus musculus with 12 samples.

Results

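The extracellular matrix and the molecules that hold cells to it or to each other were represented by 6 genes in RNA of ascites cells from mice with ovarian tumour cells in the peritoneal cavity. Fn1, Col4a1 and Thbs1 encode secreted matrix proteins, and Icam1, Vcam1 and Alcam encode cell surface adhesion molecules of the immunoglobulin family. They were chosen by name, for their function, though with earlier results of these data known. All 6 were present among the 750 genes analysed here, each read in all 12 samples. They were read with NanoString Immune Profiling, stated to cover 770 genes, an assay that counts RNA molecules with colour-coded probes and no amplification.

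The samples fell into 4 groups of 3. All mice were injected into the peritoneal cavity with 5000000 tumour cells, and RNA was taken from 2000000 ascites cells on day 21. In FAKWT samples, titled KTFAKWT, the tumour cells carried the wild-type form of FAK (focal adhesion kinase), which signals at the contacts between integrins and matrix, and the mice were untreated. In FAKKD samples the tumour cells were labelled KTFAKKD, which the labels do not expand, and the mice were likewise untreated. In the inhibitor group, mice with FAKWT tumour cells were gavaged with the FAK inhibitor VS4716 at 100 mg per kg, 2 times a day, and in the vehicle group mice with FAKWT tumour cells were gavaged with vehicle. The genotype field of the 3 vehicle samples reads KTFAKKD while their titles read KTFAKWT, and the titles were followed. Strain, age, whether a tumour line is a single clone, and whether replicates were separate animals are not stated, so every p-value measures only the spread between these samples, which may be technical. The study is titled for the role of tumour FAK in immunosuppression through CD155 and TIGIT, and each pair of groups asks how the ascites cells differed when FAK was altered in the tumour cells or inhibited by the drug.

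Fibronectin, the product of Fn1, is a large glycoprotein that cells bind through integrins, and binding clusters the integrins at focal adhesions where FAK is activated. Type IV collagen is the network-forming collagen of basement membranes, and thrombospondin 1 is a matricellular protein that modulates adhesion and can activate latent transforming growth factor beta. ICAM-1 and VCAM-1 are induced on many cells by inflammatory cytokines through NF-kB and let leukocytes adhere through their own integrins, while ALCAM binds CD6 on lymphocytes and other ALCAM molecules. In ovarian cancer ascites, floating tumour cell clusters, macrophages and shed mesothelial cells can all contribute such transcripts. Ascites cells were measured as a mixture, and fewer cells of a type cannot be told apart from less RNA per cell.

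The authors normalized the values and gave them as log2. Each sample's values resolved into whole counts times a single factor, and the mean factor of a group (n = 3, SD 0.063 to 0.19) was 0.753 for FAKWT, 0.788 for vehicle, 1.17 for the inhibitor and 1.46 for FAKKD. Totals of recovered counts ran from 588778 to 760152 over the 12 samples. Because of the factors, the median gene of the table stood 0.95 higher on the log2 scale in FAKKD than in FAKWT samples and 0.54 higher with the inhibitor than with vehicle. Each gene is therefore given on 2 scales, as deposited and relative to the panel, where every sample is shifted to the same median over the 750 genes. The medians over all genes on the panel scale were -0.10 and -0.20. Tests were limma fits over all 750 genes with Benjamini-Hochberg adjustment, and a gene passed at an adjusted p under 0.05.

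Marker genes of several cell types differed between the groups. Counts of passing markers, here and in the next paragraphs, are to be read beside the shares of all 750 genes. In FAKKD samples 65.1% passed as higher and 9.47% as lower as deposited, and 23.6% and 34.5% relative to the panel. With the inhibitor these shares were 49.2% and 10.5% as deposited, and 17.7% and 28.8% relative to the panel. Of 8 listed tumour or epithelial markers 5 were measured (Epcam, Cdh1, Msln, Itgb4, Muc1), and all 5 passed as lower in FAKKD than in FAKWT samples on both scales. With the inhibitor 3 passed as lower on both scales (Epcam, Itgb4, Muc1), and 2 as higher as deposited but 0 relative to the panel. Their summed level as deposited was 5269 to 5320 in FAKWT, 4311 to 5460 in vehicle, 7391 to 8067 in inhibitor and 2207 to 2454 in FAKKD samples. Summed recovered counts of the 5 were 6446 to 7991, 4812 to 7277, 5933 to 7093 and 1476 to 1711 in the same order. Both sums were carried by Msln, with a mean of 4625 counts and a deposited level of 6874 to 7624 in inhibitor samples. Msln was also the only measured gene of 3 mesothelial markers, so these sums cannot be assigned to tumour cells alone.

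Of 10 measured macrophage markers, 9 passed as higher and 0 as lower in FAKKD samples as deposited, and 5 and 1 relative to the panel. With the inhibitor the counts were 7 and 0, and 4 and 3. Their summed levels as deposited were 13891 to 17131 in FAKWT, 16832 to 20606 in vehicle, 35216 to 38024 in inhibitor and 48304 to 56216 in FAKKD samples. T cell markers passed as higher in FAKKD samples for 7 of 7 and B cell markers for 6 of 6 on both scales, and mast cell markers for 4 of 4 as deposited and 3 of 4 relative to the panel. The corresponding inhibitor counts were 7 of 7, 5 of 6 and 4 of 4 as deposited, and 4, 4 and 3 relative to the panel, where 1 B cell marker passed as lower. Summed T cell markers had 106 to 144 in FAKWT, 104 to 185 in vehicle, 333 to 479 in inhibitor and 455 to 608 in FAKKD samples.

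Of 5 measured endothelial markers, Pecam1 passed as higher and Tek as lower in FAKKD samples on both scales. With the inhibitor Pecam1, Cdh5 and Kdr passed as higher and 0 as lower as deposited, and Pecam1 passed as higher and Tek as lower relative to the panel. Their summed level, 2326 to 2492 in FAKWT, 1922 to 2155 in vehicle, 1834 to 2115 in inhibitor and 1469 to 1984 in FAKKD samples, is mostly Tek, with a mean of 2003 counts against 13.2 to 112.5 for the others. Of 4 measured stromal markers, 3 passed as higher in FAKKD samples and 2 with the inhibitor as deposited, and 2 and 1 relative to the panel, with sums of 153 to 243, 173 to 255, 425 to 660 and 917 to 1401 in the same order of groups. Of 5 measured neutrophil markers, 2 passed as higher in FAKKD samples and 1 with the inhibitor as deposited. Relative to the panel 1 passed as higher and 1 as lower in each comparison. Of 3 measured dendritic markers, 3 passed as higher in FAKKD samples and 1 with the inhibitor as deposited, and 0 relative to the panel. The 1 measured platelet marker, Itga2b, passed as higher in both comparisons on both scales. No marker of these lists was at 0 in any sample. The part of these cell types in the results that follow was not tested.

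Promoter sequences of 3 of the 6 genes were held in the RefSeq table of build GRCm38.p6, and the 250 bases before the transcription start of Icam1 and Alcam are shown because these adhesion genes moved in opposite directions as deposited, though both were lower in FAKKD samples relative to the panel. Capitals mark the letters that matched a searched motif. The Icam1 window lies on the plus strand at chr9:21015690-21015939, and the Alcam window on the minus strand at chr16:52453082-52453331.
Icam1: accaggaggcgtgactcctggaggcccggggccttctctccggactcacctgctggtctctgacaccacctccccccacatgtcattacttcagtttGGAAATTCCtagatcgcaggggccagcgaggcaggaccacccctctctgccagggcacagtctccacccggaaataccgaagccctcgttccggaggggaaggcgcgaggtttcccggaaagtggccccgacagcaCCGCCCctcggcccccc
Alcam: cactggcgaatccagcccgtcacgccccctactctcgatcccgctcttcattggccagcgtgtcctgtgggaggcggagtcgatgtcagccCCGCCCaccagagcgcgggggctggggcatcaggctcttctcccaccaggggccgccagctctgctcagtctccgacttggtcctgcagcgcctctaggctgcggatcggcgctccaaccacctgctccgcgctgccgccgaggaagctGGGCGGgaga
The Icam1 window held GGAAATTCC, a kB-type run of letters, 145 to 153 bases before the start on the gene's own strand. These letters were searched after the window had been seen, and they occurred in 0.286% of 32851 promoter windows of the same length. Since they were read off this window, that share does not measure how unusual the match is. The SP1-type letters GGGCGG, found in 32.7% of windows, stood on the opposite strand 12 to 17 bases before the Icam1 start, where the printed strand reads CCGCCC. In Alcam they stood 5 to 10 bases before the start and, on the opposite strand, 154 to 159 bases before it. The NF-kB consensus (7.25% of windows), the AP-1 letters TGANTCA (6.75%) and the TATA box letters TATAAA (12.4%) were searched on both strands and did not occur in either window. A match describes letters only. The Col4a1 window, which overlaps the annotated Col4a1 and Col4a2 genes, held none of these motifs and is not shown.

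Fn1 was the fibronectin gene measured and rose in both comparisons as deposited. Its log2 values were 13.82, 13.98 and 14.30 in FAKWT samples and 15.87, 15.49 and 15.30 in FAKKD samples. They were 13.94, 13.97 and 13.97 with vehicle and 14.72, 14.43 and 14.37 with the inhibitor. All FAKKD samples lay above all others, all inhibitor samples lay above all controls, and the vehicle samples lay inside the range of the untreated FAKWT samples. As deposited, Fn1 was 2.87-fold higher in FAKKD than in FAKWT samples, a log2 difference of 1.52 ± 0.16 (SE, adjusted p = 6.83e-06), and 1.46-fold higher with the inhibitor than with vehicle (0.55 ± 0.16, adjusted p = 0.0105).

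The Fn1 difference in FAKKD samples shrank relative to the panel to 0.47 ± 0.16 (adjusted p = 0.0217). With the inhibitor the Fn1 difference was -0.19 ± 0.16 and did not pass (adjusted p = 0.344). Its sign turned, but the median gene stood at -0.20 there, and 50.5% of genes had a lower inhibitor fold change. The FAKKD call on this scale rested on single samples. Without FAKWT replicate 1 it was 0.42 with an adjusted p of 0.0711, without FAKWT replicate 2 it was 0.42 with an adjusted p of 0.0712, and without FAKKD replicate 3 it was 0.30 with an adjusted p of 0.102. Recovered counts of Fn1 were 21929, 20896 and 24469 in FAKWT and 42056, 27707 and 31283 in FAKKD samples, so they did not overlap even before any factor was applied. Among all genes, 71.6% had a lower FAKKD fold change than Fn1, which places fibronectin above the median gene but outside the extremes.

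Col4a1, which encodes the alpha 1 chain of type IV collagen, fell in both comparisons on both scales. Its log2 values as deposited were 8.63, 8.84 and 8.75 in FAKWT, 8.37, 8.40 and 8.28 in vehicle, 7.95, 8.04 and 8.14 in inhibitor and 7.38, 7.49 and 7.50 in FAKKD samples. The 4 groups were stacked without any overlap, from untreated FAKWT at the top to FAKKD at the bottom. The SD within groups, pooled over the 4 groups, was 0.0838, the smallest of the 6 genes and well below the 0.274 of the median gene.

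In FAKKD samples Col4a1 was 2.44-fold lower than in FAKWT samples as deposited, a log2 difference of -1.29 ± 0.096 (adjusted p = 6.98e-07), and only 2.67% of genes had a lower fold change. It was 5.06-fold lower on the panel scale (-2.34 ± 0.11, adjusted p = 1.55e-08). With the inhibitor it was 1.24-fold lower as deposited (-0.31 ± 0.096, adjusted p = 0.0156) and 2.07-fold lower relative to the panel (-1.05 ± 0.11, adjusted p = 1.20e-05). The deposited inhibitor call was lost without FAKi replicate 4 (-0.26, adjusted p = 0.0655) and without vehicle replicate 4 (-0.28, adjusted p = 0.0507). Recovered counts of Col4a1 ran from 521 to 602 in FAKWT samples and from 108 to 140 in FAKKD samples.

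Thbs1, the thrombospondin 1 gene, fell with the inhibitor on both scales, and its FAKKD difference did not pass as deposited but was negative and passed relative to the panel. Its log2 values as deposited were 12.42, 12.33 and 12.46 with vehicle and 11.19, 11.38 and 11.15 with the inhibitor. They were 12.24, 12.45 and 12.67 in FAKWT and 12.84, 12.68 and 12.18 in FAKKD samples. The inhibitor samples stood below every other sample, while FAKKD, FAKWT and vehicle samples overlapped.

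With the inhibitor Thbs1 was 2.24-fold lower than with vehicle as deposited (-1.16 ± 0.16, adjusted p = 7.07e-05) and 3.74-fold lower on the panel scale (-1.90 ± 0.15, adjusted p = 8.68e-07). Only 3.87% of genes had a lower fold change with the inhibitor. The FAKKD difference was 0.11 ± 0.16 as deposited, with a 95% interval from -0.23 to 0.46 (adjusted p = 0.524), and turned to -0.94 ± 0.15 relative to the panel (adjusted p = 0.000128), where it was 1.92-fold lower. The deposited FAKKD value depended on single samples: without FAKKD replicate 5 it was 0.31 and passed (adjusted p = 0.0435), and without FAKKD replicate 3 it was -0.025. Recovered counts were 7207 to 7887 in FAKWT, 5730 to 7831 in vehicle, 3599 to 5161 in FAKKD and 1824 to 2339 in inhibitor samples.

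**Figure D1:**
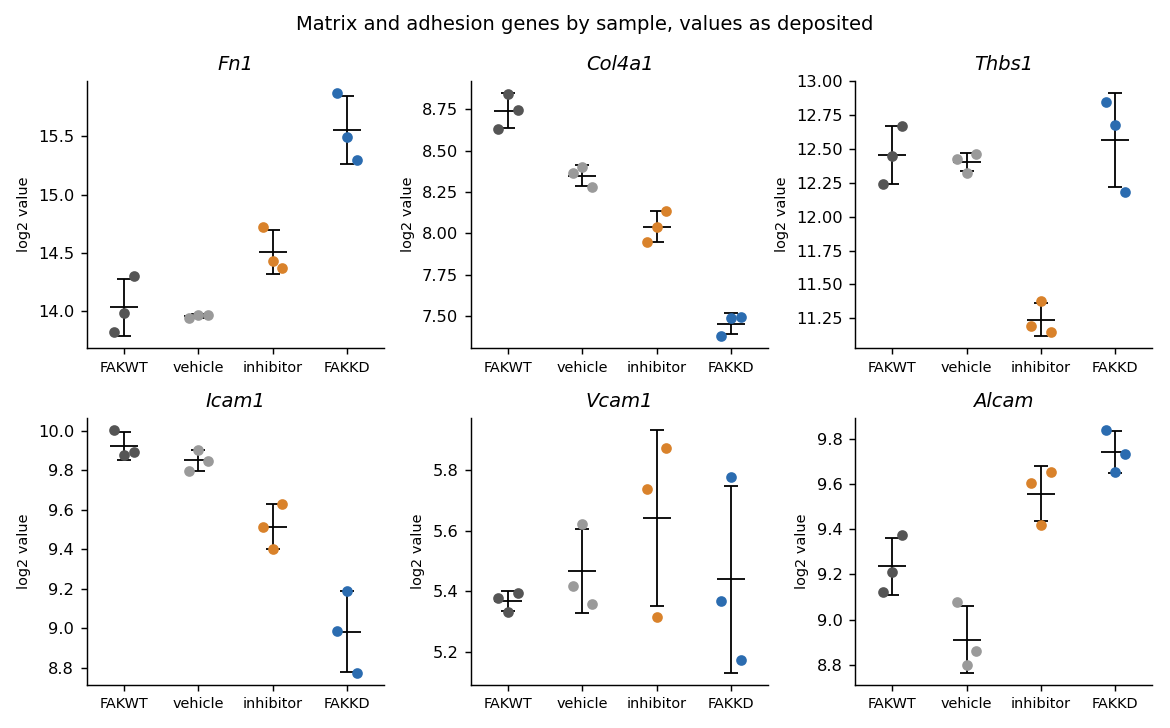
Deposited log2 values of the 6 genes, 1 panel per gene with its own vertical axis, which does not start at 0. Points are samples (3 per group, FAKWT, vehicle, inhibitor, FAKKD), long bars the group mean and whiskers the SD. Col4a1 and Icam1 step down towards FAKKD, Fn1 and Alcam step up, Thbs1 is low with the inhibitor alone and the Vcam1 groups overlap. Relative to the panel the FAKKD directions of Thbs1, Vcam1 and Alcam and the inhibitor directions of Fn1, Vcam1 and Alcam turn negative. The median gene with the inhibitor is -0.20 on that scale.

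Icam1, the gene of a cytokine-induced ligand for leukocyte integrins, fell in both comparisons on both scales. Its log2 values as deposited were 10.00, 9.88 and 9.89 in FAKWT and 9.80, 9.90 and 9.85 in vehicle samples. They were 9.52, 9.40 and 9.63 in inhibitor and 8.99, 9.19 and 8.78 in FAKKD samples. The FAKWT and vehicle samples overlapped, all inhibitor samples lay below them, and all FAKKD samples lay lower still.

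Icam1 was 1.92-fold lower in FAKKD than in FAKWT samples as deposited (-0.94 ± 0.11, adjusted p = 1.32e-05) and 3.98-fold lower on the panel scale (-1.99 ± 0.14, adjusted p = 2.64e-07). As deposited, 3.73% of genes had a lower FAKKD fold change. With the inhibitor it was 1.26-fold lower as deposited (-0.33 ± 0.11, adjusted p = 0.0182) and 2.11-fold lower relative to the panel (-1.08 ± 0.14, adjusted p = 6.60e-05). Without FAKi replicate 5 the deposited inhibitor value was -0.28 (adjusted p = 0.0746), and without vehicle replicate 4 it was -0.31 (adjusted p = 0.0563). Recovered Icam1 counts were 1151 to 1558 in FAKWT and 340 to 356 in FAKKD samples.

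Vcam1, the gene of the endothelial and stromal ligand of the integrin made from Itga4 and Itgb1, was counted few times. Its recovered counts were 63, 52 and 51 in FAKWT, 57, 55 and 57 in vehicle, 47, 35 and 47 in inhibitor and 29, 33 and 28 in FAKKD samples. As log2 values these were 5.38, 5.33 and 5.40, then 5.42, 5.62 and 5.36, then 5.74, 5.31 and 5.87, and 5.37, 5.78 and 5.17 in the same order. The counts were lowest in FAKKD samples without overlap, but the deposited log2 values of all 4 groups overlapped once the factors had been applied.

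Vcam1 did not pass as deposited in either comparison. The differences were 0.072 ± 0.20 in FAKKD samples (95% interval -0.38 to 0.52, adjusted p = 0.766) and 0.18 ± 0.20 with the inhibitor (95% interval -0.27 to 0.62, adjusted p = 0.476). Both signs turned relative to the panel: -0.98 ± 0.22 in FAKKD samples, which passed (adjusted p = 0.00239), and -0.57 ± 0.22 with the inhibitor, which did not (adjusted p = 0.0561). The inhibitor value on that scale passed without FAKi replicate 6 (-0.74, adjusted p = 0.0241) and without FAKKD replicate 4, which enters through the shared spread (adjusted p = 0.0453). It also passed with both control groups pooled (-0.58, adjusted p = 0.0198) and against untreated FAKWT (-0.58, adjusted p = 0.0450). The SD of Vcam1 within groups was 0.223 as deposited, where the median gene had 0.274, and 0.263 relative to the panel, where the median gene had 0.258.

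Alcam, the gene of the ligand of CD6, rose in both comparisons as deposited. Its log2 values were 9.12, 9.21 and 9.37 in FAKWT, 9.08, 8.80 and 8.86 in vehicle, 9.60, 9.42 and 9.65 in inhibitor and 9.84, 9.65 and 9.73 in FAKKD samples. The inhibitor and FAKKD samples overlapped at the top, FAKWT samples came next, and vehicle samples lay lowest, with no overlap between these 3 levels. As deposited Alcam was 1.42-fold higher in FAKKD than in FAKWT samples (0.51 ± 0.11, adjusted p = 0.00123) and 1.57-fold higher with the inhibitor than with vehicle (0.65 ± 0.11, adjusted p = 0.000286).

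On the panel scale Alcam was 1.46-fold lower in FAKKD samples (-0.55 ± 0.13, adjusted p = 0.00243), the opposite direction. The inhibitor difference was -0.094 ± 0.13 (adjusted p = 0.578), where the median gene stood at -0.20 and 56% of genes had a lower fold change. The choice of control mattered on this scale. FAKKD samples set against vehicle gave -0.11 (adjusted p = 0.523) and against both control groups pooled -0.33 (adjusted p = 0.0788), while inhibitor samples set against untreated FAKWT gave -0.53 (adjusted p = 0.00311). Recovered Alcam counts were 764 to 846 in FAKWT and 484 to 660 in FAKKD samples, so the raw counts were lower and the deposited values higher.

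**Figure D2:**
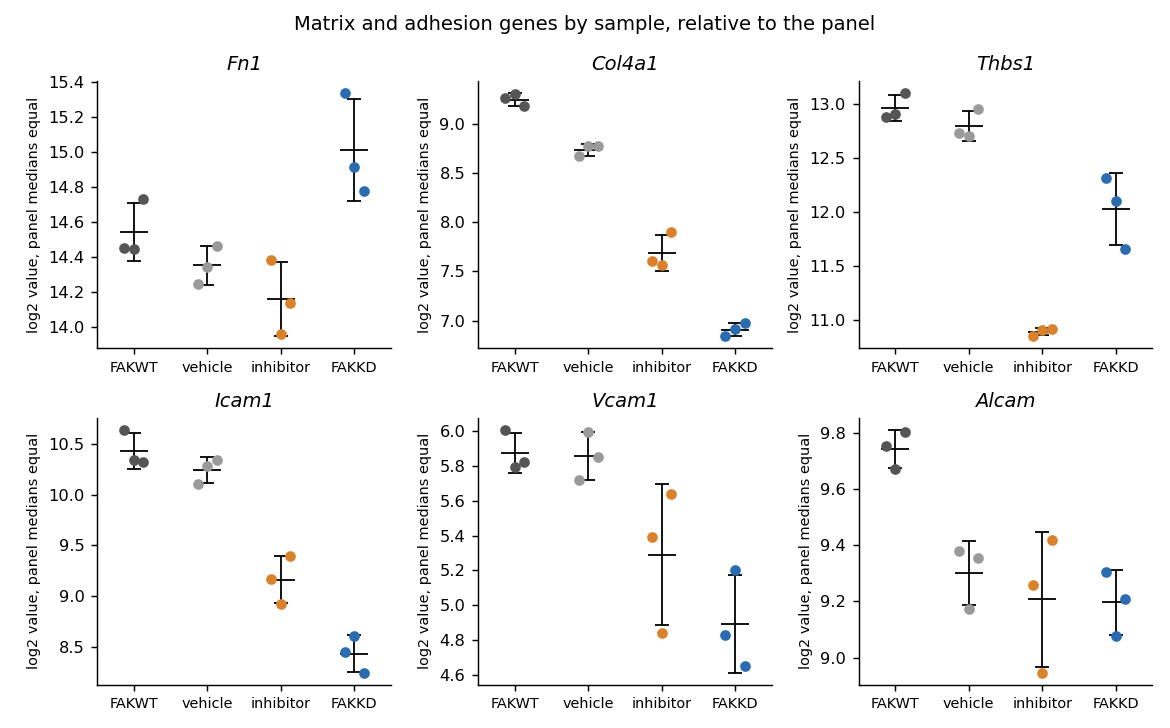
Log2 values of the 6 genes relative to the panel, after every sample was shifted to the same median over 750 genes; points are the 12 samples, long bars group means and whiskers SDs, and the vertical axes do not start at 0. In FAKKD samples Fn1 alone lies above the FAKWT samples and the other 5 genes lie below them, whereas as deposited Alcam lay above and Thbs1 and Vcam1 overlapped.

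Taken over the 6 genes, the FAKKD comparison as deposited gave 2 higher (Fn1, Alcam), 2 lower (Col4a1, Icam1) and 2 that did not pass (Thbs1, Vcam1), so 4 of 6 passed where 74.5% of all genes did. Among all genes 65.1% passed as higher and 9.47% as lower. The samples of the groups did not overlap for 4 of 6 genes, against 76.8% of all genes. The median log2 fold change of the 6 was 0.093, against 0.95 over all genes. On the panel scale 1 gene passed as higher and 5 as lower, so all 6 passed where 58.1% of all genes did, 23.6% as higher and 34.5% as lower, and the median of the 6 was -0.96 against -0.10.

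The inhibitor comparison as deposited gave 2 higher (Fn1, Alcam), 3 lower (Col4a1, Thbs1, Icam1) and 1 that did not pass (Vcam1). Thus 5 of 6 passed where 59.7% of all genes did, 49.2% as higher and 10.5% as lower, and 5 of 6 had samples that did not overlap, against 66.9% of all genes. Without vehicle replicate 4, 3 of 6 passed. The median of the 6 was -0.066 against 0.54 over all genes. With panel scaling 0 passed as higher and 3 as lower (Col4a1, Thbs1, Icam1), a share to set beside 46.5% of all genes, 17.7% as higher and 28.8% as lower, and the median was -0.81 against -0.20. Across both comparisons and both scales, the 2 genes that passed as lower every time were Col4a1 and Icam1.

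**Figure D3:**
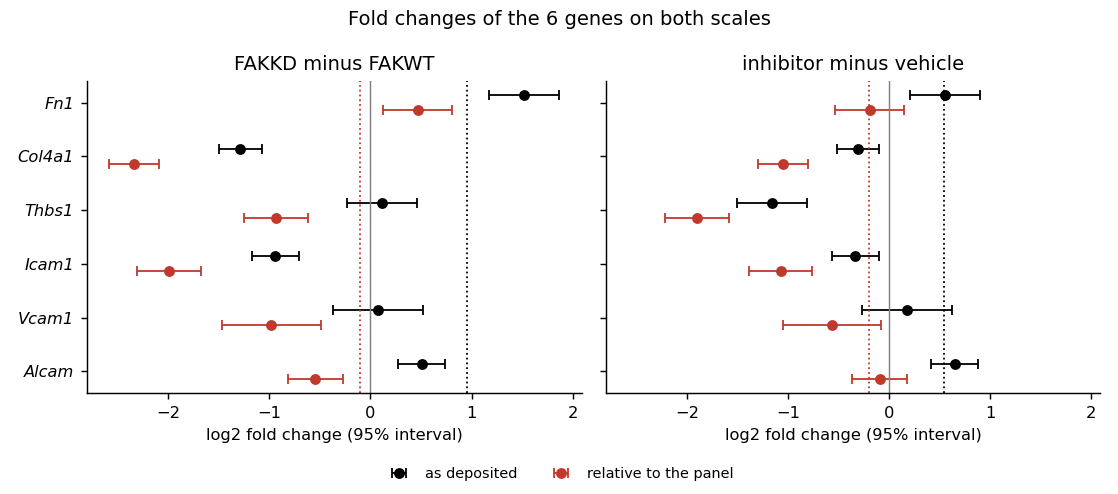
Log2 fold changes of the 6 genes with 95% intervals from limma, FAKKD minus FAKWT at left and inhibitor minus vehicle at right, as deposited (black) and relative to the panel (red). Dotted lines mark the median over all 750 genes on each scale. Intervals of Col4a1 and Icam1 lie below 0 on both scales and in both panels, while Thbs1, Vcam1 and Alcam in FAKKD and Fn1, Vcam1 and Alcam with the inhibitor change sign between the scales.

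Vehicle samples were compared with untreated FAKWT samples to measure the background of handling. By limma 0 of the 6 genes passed, and 0 of all 750 genes did (0% called on either scale), while at an unadjusted p under 0.05 there were 2 of the 6 and 93 of 750 as deposited (99 relative to the panel). The 2 were Col4a1, at -0.39 ± 0.096 (unadjusted p = 0.00165, adjusted p = 0.145), and Alcam, at -0.32 ± 0.11 (unadjusted p = 0.0113, adjusted p = 0.201). For these 2 genes the vehicle samples lay below all FAKWT samples, as the groups also failed to overlap for 16.1% of all genes. The other differences were -0.074 for Fn1, -0.050 for Thbs1, -0.074 for Icam1 and 0.098 for Vcam1, with adjusted p-values from 0.894 to 0.949. Leaving out FAKWT replicate 3 turned Fn1 to 0.060 and Thbs1 to 0.057.

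Whether the genes moved differently in the FAKKD and inhibitor comparisons was tested directly, as the FAKKD minus FAKWT difference less the inhibitor minus vehicle difference, which share no samples. As deposited 4 of 6 passed, 2 positive and 2 negative, where 23.9% of all genes did, 16.3% positive and 7.6% negative. With panel scaling the same 4 passed with the same signs, where 26.0% of all genes did, 11.2% positive and 14.8% negative.

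Thbs1 differed by 1.28 ± 0.22 as deposited (adjusted p = 0.00303) and by 0.97 ± 0.21 on the panel scale (adjusted p = 0.00580). Col4a1 was lowered more in FAKKD samples, by -0.98 ± 0.14 (adjusted p = 0.000916) as deposited and by -1.29 ± 0.16 on the panel scale (adjusted p = 0.000498). Icam1 was likewise lowered more, by -0.61 ± 0.15 (adjusted p = 0.0138) and -0.92 ± 0.20 (adjusted p = 0.00681). Each such difference includes the gap between the control groups. For Col4a1 as deposited, vehicle lay 0.39 below FAKWT samples, and FAKKD samples lay 0.59 below inhibitor samples, both without overlap. Fn1 was raised more in FAKKD samples, by 0.97 ± 0.22 as deposited (adjusted p = 0.00933). The Fn1 difference relative to the panel was 0.66 ± 0.22 (adjusted p = 0.0452), which passed in only 3 of the 12 fits that each left out 1 sample (0.50 to 0.78, lowest adjusted p 0.0192). Vcam1 and Alcam did not pass on either scale, at -0.10 ± 0.29 (adjusted p = 0.816) and -0.14 ± 0.15 (adjusted p = 0.535) as deposited, and an adjusted p above the threshold does not show that they moved alike.

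**Figure D4:**
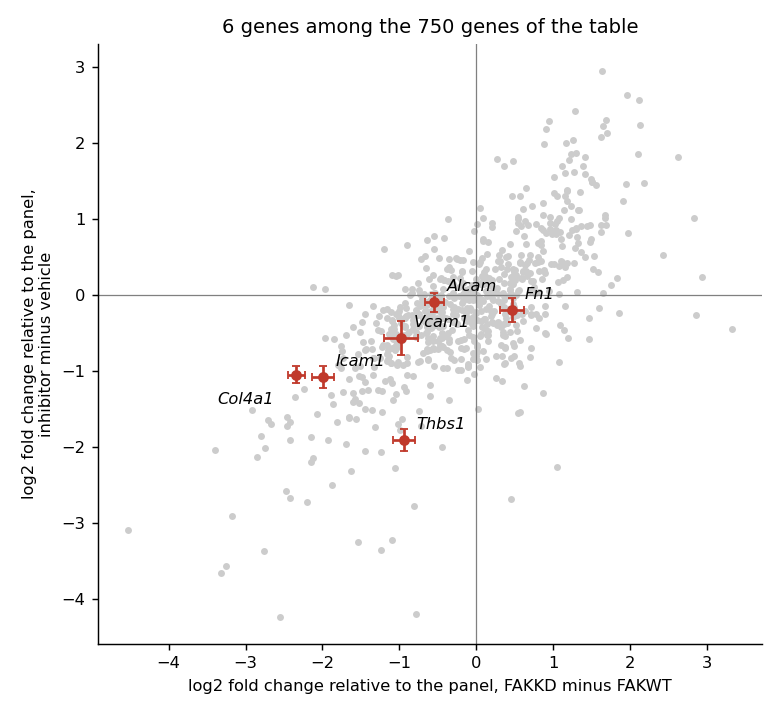
Log2 fold changes relative to the panel of all 750 genes (grey) and the 6 genes (red, bars are SE), FAKKD minus FAKWT on the horizontal axis and inhibitor minus vehicle on the vertical axis. Thbs1 lies lowest of the 6 on the vertical axis at -1.90 and Col4a1 farthest left at -2.34; as deposited Thbs1 had 0.11 on the horizontal axis, the opposite sign.

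Receptors of these molecules were read from the same fits. Of 14 measured integrin subunits, 10 passed as higher and 2 as lower in FAKKD samples as deposited, and 2 as higher and 4 as lower relative to the panel. With the inhibitor the counts were 6 and 2 as deposited, and 3 and 9 relative to the panel. Over the subunits the median log2 fold change was 1.07 as deposited and 0.015 relative to the panel in FAKKD samples, and 0.35 and -0.39 with the inhibitor, beside 0.95, -0.10, 0.54 and -0.20 over all genes. The counts are to be read beside the shares of all genes. In FAKKD samples 65.1% passed as higher and 9.47% as lower as deposited, and 23.6% and 34.5% relative to the panel. With the inhibitor 49.2% and 10.5% did so as deposited, and 17.7% and 28.8% relative to the panel.

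The fibronectin receptor subunits Itga5 and Itgb1 changed sign with the scale in FAKKD samples, 0.47 ± 0.12 and 0.37 ± 0.071 as deposited against -0.59 ± 0.16 and -0.69 ± 0.11 relative to the panel. Itga4, whose integrin binds both fibronectin and VCAM-1, was higher on both scales, by 2.58 ± 0.17 as deposited in FAKKD samples (adjusted p = 3.11e-07) and 1.26 ± 0.17 with the inhibitor (adjusted p = 6.45e-05). Itgb3, a subunit of receptors for fibronectin and thrombospondin, was lower on both scales, by -1.37 ± 0.15 (adjusted p = 9.55e-06) and -0.93 ± 0.15 (adjusted p = 0.000227) as deposited. The thrombospondin receptors parted: Cd36, a scavenger receptor, was higher by 3.18 ± 0.37 and 2.98 ± 0.37 as deposited, whereas Cd47 had 0.099 ± 0.061, which did not pass, and 0.22 ± 0.061, and both Cd47 values turned to -0.95 ± 0.10 and -0.52 ± 0.10 relative to the panel.

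The leukocyte integrin subunits that bind ICAM-1 were higher in FAKKD samples as deposited, Itgal by 1.83 ± 0.37, Itgam by 1.18 ± 0.14 and their common partner Itgb2 by 1.26 ± 0.13, while Icam1 itself was lower. On the panel scale the 3 values were 0.78 ± 0.33, 0.13 ± 0.13 and 0.20 ± 0.13, and none passed. With the inhibitor the 3 subunits parted. Itgal passed as higher on both scales, by 1.67 ± 0.37 as deposited and 0.93 ± 0.33 with panel scaling. Itgb2 passed in opposite directions, as higher by 0.39 ± 0.13 before panel scaling and as lower, at -0.35 ± 0.13, after it. Itgam did not pass as deposited (-0.10 ± 0.14). With panel scaling Itgam was -0.85 ± 0.13 and passed (adjusted p = 0.000193). Cd6, the receptor of ALCAM, was higher as deposited by 1.55 ± 0.27 in FAKKD samples and 1.05 ± 0.27 with the inhibitor, but had a mean of 20.4 counts and did not pass relative to the panel.

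**Figure D5:**
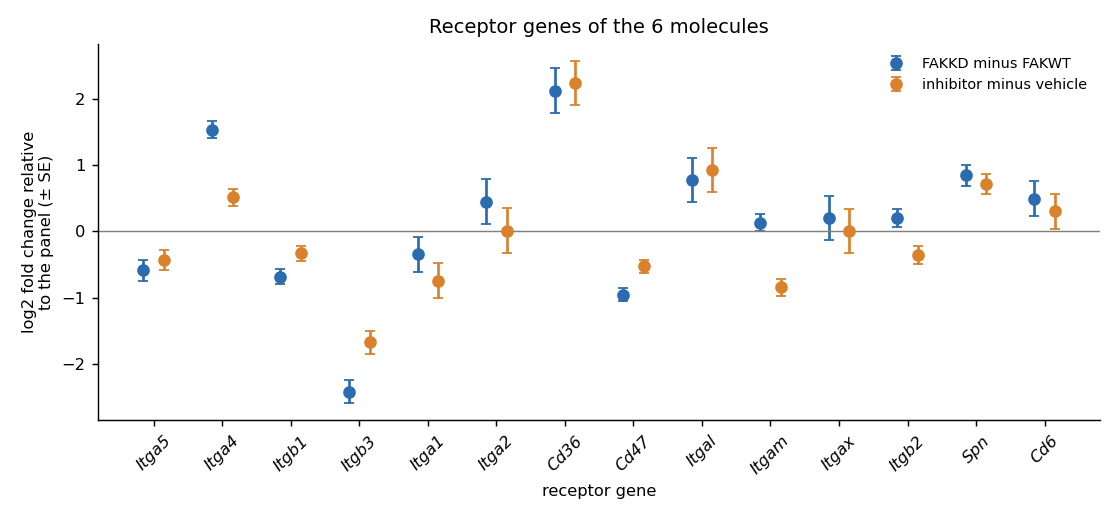
Log2 fold changes relative to the panel (± SE) of 14 receptor genes of the 6 molecules, FAKKD minus FAKWT in blue and inhibitor minus vehicle in orange. Itga4, Cd36 and Spn lie above 0 and Itgb3, Itga5, Itgb1 and Cd47 below it in both comparisons; as deposited Itga5, Itgb1 and Cd47 had the opposite sign.

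Of 8 other measured matrix genes, 2 passed as higher and 3 as lower in FAKKD samples as deposited (2 and 4 relative to the panel), and 3 and 4 with the inhibitor (1 and 4 relative to the panel). Of all genes, 65.1% passed as higher and 9.47% as lower in FAKKD samples as deposited (23.6% and 34.5% relative to the panel). With the inhibitor 49.2% and 10.5% did so (17.7% and 28.8% relative to the panel). The median of the 8 matrix genes was -0.055 in FAKKD samples and -0.28 with the inhibitor as deposited, beside 0.95 and 0.54 over all genes. The interstitial collagen gene Col3a1 was higher by 2.68 ± 0.26 in FAKKD samples and 1.57 ± 0.26 with the inhibitor, and Col1a1 by 2.03 ± 0.24 and 1.15 ± 0.24, as deposited. Both stayed positive relative to the panel, although the inhibitor value of Col1a1, 0.41 ± 0.22, did not pass there. Spp1, the gene of osteopontin, was lower by -2.20 ± 0.31 and -2.82 ± 0.31, and the urokinase gene Plau by -0.82 ± 0.16 and -1.75 ± 0.16, as deposited, and lower still relative to the panel. Col1a1 and Col3a1 also stand on the stromal marker list, whose sums are given above.

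Of 19 other measured adhesion molecules, 14 passed as higher and 2 as lower in FAKKD samples as deposited, and 5 and 9 relative to the panel. With the inhibitor the counts were 12 and 2, and 5 and 6. The shares of all genes were 65.1% higher and 9.47% lower in FAKKD samples as deposited (23.6% and 34.5% relative to the panel). With the inhibitor they were 49.2% and 10.5% as deposited (17.7% and 28.8% relative to the panel). As deposited, the list's median was 0.67 in FAKKD samples, against 0.95 over all genes, and 0.82 with the inhibitor, against 0.54. Epcam, an epithelial adhesion molecule, was lower by -1.70 ± 0.16 and -1.27 ± 0.16 as deposited, and lower on both scales. Pecam1, an adhesion molecule of endothelium and leukocytes, was higher by 2.28 ± 0.23 and 2.60 ± 0.23, and the neural cell adhesion gene Ncam1 by 1.92 ± 0.17 and 1.32 ± 0.17, again on both scales. Icam4, of the same family as Icam1, was 0.41 ± 0.12 as deposited and -0.64 ± 0.12 relative to the panel in FAKKD samples, and with the inhibitor 1.46 ± 0.12 and 0.72 ± 0.12. In the same order of scales, Cd81 was 0.33 ± 0.095 and -0.72 ± 0.11 in FAKKD samples, and 1.22 ± 0.095 and 0.47 ± 0.11 with the inhibitor. Selplg was 1.76 ± 0.16 and 0.71 ± 0.13 in FAKKD samples, and 0.58 ± 0.16 and -0.16 ± 0.13 with the inhibitor.

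The genes whose pattern over the 12 samples lay nearest to each of the 6 were found by the root mean square difference between gene-centred log2 values relative to the panel, given as a description with no test. Nearest to Col4a1 was Pvr, the gene of CD155, at 0.148, followed by Icam1 at 0.187 and Nfkb2 at 0.214, where the median gene of the table lay at 0.947. Nearest to Icam1 was again Pvr at 0.169, then Isg20 at 0.185 and Col4a1 at 0.187, against a median of 0.860. Col4a1 and Icam1 thus stood among each other's 3 nearest genes, with Pvr first for both. Pvr itself was lower by -1.19 in FAKKD samples and -0.49 with the inhibitor as deposited.

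Nearest to Fn1 were Cmklr1, at 0.152, Itgb2 at 0.183 and Lyn at 0.186 (median gene 0.579). Cdkn1a at 0.229, Hsd11b1 at 0.239 and Socs1 at 0.245 lay nearest to Thbs1 (median gene 0.835), and all 3 were lower with the inhibitor as deposited, at -0.79, -1.33 and -1.03. For Vcam1 the nearest were Map3k7 at 0.166, Tlr4 at 0.180 and Cd47 at 0.194 (median gene 0.581), and for Alcam they were Il2rg at 0.131, Nfkb1 at 0.133 and Smad4 at 0.145 (median gene 0.499).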

How the data were processed

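The authors deposited a table of log2 values, which they had normalized; the software, reference genes and background handling behind them were not given in the sources used here. Of 750 gene symbols, 734 were current in RefSeq, 8 were synonyms and 8 were unmatched. Whole counts were recovered from the deposited values (tolerance 0.01, 100% of genes), and replicates of a group always differed beyond sampling noise (chi-square over its degrees of freedom 8.35 to 59.6). Counts of the 148 genes with a mean under 20 are the least precise.

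Group means of all 12 samples were fitted with limma 3.58.1 in R 4.3.3 (lmFit, contrasts.fit, eBayes with trend, two-sided), and p-values were adjusted by Benjamini-Hochberg over the 750 genes, separately for 4 contrasts, at 0.05, with no filter and no pseudocount. The smallest two-sided p of an exact permutation test at this group size is 0.1. Errors of fold changes are moderated standard errors.

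Alternatives were panel median scaling, scaling to the total of recovered counts (log2 of the count plus 0.5), dropping the lowest 25% of genes, eBayes without trend, fits of the compared groups only, other controls, and leaving out each sample. Panel median scaling combined with left-out samples or other controls was added after seeing the data, as was the search for the kB-type letters. Pseudocounts for linear values did not apply, since the values are log2. The members, gene lists and markers were chosen with earlier results of these data known. Named were all 6 genes, the 3 genes nearest in pattern to each, and the receptors. From each list, genes among the 3 of smallest deposited p in a comparison were named, though not always all 3. Tnf was named in addition, and counts cover whole lists. Promoters and the positions of their windows come from RefSeq, and other gene positions are not given because the table names no build. Figures were drawn with matplotlib 3.10.9 in Python 3.11.15.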

Additional observations from a re-analysis of the deposited data

Results flagged for a closer look

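For 4 of the 6 genes the change in FAKKD samples differed from the change with the inhibitor in a direct test of the difference by limma, and each is given here as a value without an explanation. The FAKKD minus FAKWT log2 fold change exceeded the inhibitor minus vehicle one by 1.28 for Thbs1, where only the inhibitor samples were low as deposited, and by 0.97 for Fn1, where both changes were upward as deposited and larger in FAKKD samples. It was lower by -0.98 for Col4a1 and by -0.61 for Icam1, both of which fell in both comparisons and fell further in FAKKD samples. The Col4a1 value includes the gap of 0.39 by which vehicle samples lay below FAKWT samples as deposited. Each of the 4 kept its sign relative to the panel, and the Fn1 value of 0.66 there passed in only 3 of the 12 fits that left out 1 sample.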

How the results depend on the processing

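No paired analysis was possible because the groups compared share fewer than 2 replicate numbers. Scaling moved the results most. Between groups the median gene differs by up to 0.95 as deposited, and 3 FAKKD differences turned with panel and total scaling: Thbs1 to -0.94 and -0.90, Vcam1 to -0.98 and -0.93, and Alcam to -0.55 and -0.51. With the inhibitor Fn1 turned to -0.19 and -0.067, Vcam1 to -0.57 and -0.44, and Alcam to -0.094 with panel scaling, while total scaling left Alcam at 0.031. The median gene with the inhibitor was -0.20 with panel and -0.079 with total scaling. Vehicle minus FAKWT of Vcam1 turned to -0.018 and -0.012. Against vehicle the FAKKD value of Vcam1 was -0.026. Members passing with the inhibitor fell from 5 to 3 with panel and with total scaling, and those passing relative to the panel rose from 3 to 5 against untreated FAKWT. With only the compared groups fitted, 1 gene of the table passed in vehicle minus FAKWT where 0 had.

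Leaving out single samples turned the sign within these ranges: FAKKD minus FAKWT from -0.025 to 0.31 for Thbs1 and from -0.097 to 0.20 for Vcam1 (negative without FAKKD replicate 4); vehicle minus FAKWT from -0.18 to 0.060 for Fn1, from -0.16 to 0.057 for Thbs1 and, relative to the panel, from -0.088 to 0.049 for Vcam1; inhibitor minus vehicle of Alcam relative to the panel from -0.20 to 0.036 (positive without FAKi replicate 5); and the difference of the 2 comparisons from -0.27 to 0.029 for Vcam1. Members passing with the inhibitor ranged from 3 to 5, and from 3 to 4 relative to the panel. Genes of the table passing in vehicle minus FAKWT ranged from 0 to 5, and from 0 to 4 relative to the panel. The difference of Fn1 had 0.57 (adjusted p = 0.0564) and that of Alcam -0.54 (adjusted p = 0.0228) with total scaling. The cause of these changes was not tested. Of 984 alternative values, 921 kept their direction and their side of the threshold or stayed within 1.5 times the main count. Many of these alternatives could not move a fold change, so the 921 overstates stability. They left out a sample of neither compared group, or changed only the estimate of spread or the genes kept. Vcam1, at 28 to 63 counts, is the gene most limited by counting error.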

Other observations

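Genes of the NF-kB pathway and of the cytokines that act through it, which are known to induce Icam1 and Vcam1, are given here by counts. Of 19 measured, 10 passed as higher and 2 as lower in FAKKD samples as deposited, and 3 and 11 relative to the panel, with medians of 0.50 and -0.55. Of all genes 65.1% passed as higher and 9.47% as lower as deposited, and 23.6% and 34.5% relative to the panel, with medians of 0.95 and -0.10. With the inhibitor 10 passed as higher and 1 as lower as deposited, and 0 and 6 relative to the panel, with medians of 0.44 and -0.30, where all genes had 49.2% and 10.5%, then 17.7% and 28.8%, and medians of 0.54 and -0.20. The cytokine gene Il1a was higher in FAKKD samples on both scales, at 2.92 ± 0.31 and 1.86 ± 0.30, and did not pass with the inhibitor on either scale (0.51 ± 0.31, adjusted p = 0.179, and -0.24 ± 0.30, adjusted p = 0.554). The kinase gene Ikbkb was 0.88 ± 0.083 as deposited and -0.18 ± 0.093 relative to the panel in FAKKD samples, and 0.90 ± 0.083 and 0.16 ± 0.093 with the inhibitor. Nfkb2, which encodes a subunit of the non-canonical pathway, was lower on both scales, at -0.83 ± 0.11 and -1.88 ± 0.13 in FAKKD samples and -0.58 ± 0.11 and -1.32 ± 0.13 with the inhibitor. Tnf was higher in FAKKD samples on both scales, at 2.42 ± 0.38 and 1.36 ± 0.36. With the inhibitor Tnf passed as higher as deposited (1.64 ± 0.38) but not relative to the panel (0.90 ± 0.36). Ikbke was 1.15 ± 0.13 and 0.097 ± 0.11 in FAKKD samples, and 0.92 ± 0.13 and 0.18 ± 0.11 with the inhibitor. Rel was 0.49 ± 0.10 and -0.56 ± 0.11 in FAKKD samples, and 0.86 ± 0.10 and 0.12 ± 0.11 with the inhibitor.

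Of 8 measured genes of the transforming growth factor beta pathway, which thrombospondin 1 can feed and which is known to induce Fn1, 5 passed as higher and 1 as lower in FAKKD samples as deposited, and 1 and 7 relative to the panel, to be read beside the same shares of all genes. With the inhibitor 6 passed as higher and 1 as lower, and 1 and 4 relative to the panel. Their medians were 0.47 and -0.58 in FAKKD samples and 0.51 and -0.23 with the inhibitor. The ligand gene Tgfb2 was higher on both scales, at 1.59 ± 0.13 and 0.54 ± 0.12 in FAKKD samples and 1.75 ± 0.13 and 1.01 ± 0.12 with the inhibitor. Tgfb3 was 0.031 ± 0.11 in FAKKD samples as deposited and did not pass, and passed as lower relative to the panel (-1.02 ± 0.11, adjusted p = 8.33e-06), and with the inhibitor it passed as higher as deposited (adjusted p = 1.68e-05) but not relative to the panel (0.26 ± 0.11, adjusted p = 0.0768). These values are given with no explanation.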
